A study of Homo sapiens with 8 samples.

Results

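The genes described here are the numbered zinc finger genes (symbols of ZNF followed by digits) that were expressed in U251 cells, a human glioblastoma cell line. RNAseq was performed on 4 replicates treated with vehicle (DMSO) and 4 treated with LLY-283, a small-molecule inhibitor of the arginine methyltransferase PRMT5, at 100 nM for 24 h. All 8 libraries came from wild type U251 cells, so the results describe a single tumor line at a single dose and time. Levels are in TPM, the RNA-seq unit that corrects a transcript's reads for its length and then scales every library to the same sum. In bulk RNA, a change in some cells cannot be told apart from a smaller change in all of them. The table listed 476 numbered ZNF genes among 61906 genes, of which 15 were at 0 in all libraries. The 277 genes described were chosen by their vehicle values, as those that averaged 5 TPM or more in vehicle, so the vehicle levels are a description only. All 277 passed the filter on low values (an 8-library mean of 1 TPM or more), and they belong to the 408 numbered ZNF genes and 14478 genes that did.

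ZNF genes form the largest family of transcription factor genes in human cells. Most of them encode tandem C2H2 zinc fingers, each of which holds a zinc ion and reads a few bases of DNA, so an array of fingers can recognise a long site. Many carry a KRAB domain in front of the fingers, which recruits the co-repressor TRIM28 and through it the histone methyltransferase SETDB1 and heterochromatin proteins. KRAB zinc finger proteins are best known for silencing transposable elements, and many of their genes lie in clusters of recent duplicates on chromosome 19. PRMT5 places symmetric dimethyl groups on arginine, among others in histones and in splicing proteins.

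Of the 277 genes, 155 had a KRAB A-box pattern in the translated protein and 122 did not, 15 had a SCAN domain pattern, and 126 lay on chromosome 19. The patterns are short searches and miss degenerate domains. The median number of C2H2 finger patterns was 10 per protein. Vehicle levels ran from 5.02 TPM (ZNF620) to 180.7 TPM (ZNF207), with a median of 10.5 TPM. The spread between replicates was small, with a median coefficient of variation of 6.3% in vehicle and 7.38% in LLY-283 libraries.

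The libraries could be compared by TPM but not by depth, because TPM keeps no read number. Between 24042 and 24757 genes were above 0 in a library. The target PRMT5 was at 100 ± 5.03 TPM in vehicle and 100.4 ± 4.92 TPM in LLY-283 libraries (SD, n = 4), and its level does not measure the inhibition of the enzyme. The glioblastoma markers VIM, NES, CD44, EGFR, GFAP, S100B and SOX2 were expressed, whereas OLIG2 was at or under 0.03 TPM. All 8 markers of other cell types (PTPRC, CD14, EPCAM, CDH5, PECAM1, ALB, RBFOX3 and MOG) were under 1 TPM in every library. LLY-283 replicate 4 stood apart from the other libraries, with 7.19% of its TPM from genes of the mitochondrial genome against 10.2% to 11% in the other 7 libraries.

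When LLY-283 was compared with vehicle (limma on log2(TPM + 0.1), Benjamini-Hochberg adjustment over all 14478 genes), 44 of the 277 ZNF genes were decreased and 23 were increased at an adjusted p under 0.05. These are 15.9% and 8.3% of the genes, against 17.6% and 8.61% of all genes tested and 19.2% and 10.6% of the 11080 tested genes that averaged 5 TPM or more in vehicle, so both shares lay below their backgrounds in this fit. With 1 library left out, between 13 and 15 genes were increased for each library other than LLY-283 replicate 4 (27 without it), and between 28 (without vehicle replicate 3) and 40 were decreased, with 29 without vehicle replicate 4. In these fits 10.1% to 14.4% were decreased and 4.69% to 9.75% increased, against 13% to 18.4% and 6.13% to 10.4% of all genes tested. Without LLY-283 replicate 4 the shares were 13% and 9.75%, against 18.4% and 10.4% of all genes tested. Most changes were small. A decrease of more than 1.5-fold was found for 3 genes (1.08%), ZNF302, ZNF594 and ZNF789, against 3.48% of all genes and 2.2% of those at 5 TPM or more. No ZNF gene was increased more than 1.5-fold by limma, at an adjusted p or at an unadjusted p under 0.05 (0 genes each), against 0.394% of all genes and 0.162% of those at 5 TPM or more. Without the fold threshold, 67 genes were lower and 30 were higher at an unadjusted p under 0.05. The median log2 fold change was -0.04, against -0.05 over all genes tested. The direction of this median depended on the scaling. It was 0.05 after quantile normalization and 0.01 after median-of-ratios scaling, against 0.0145 and -0.0022 over all genes tested. The balance of calls moved with it, to 22 decreased and 42 increased genes after quantile normalization and to 30 decreased and 31 increased genes after median-of-ratios scaling. After quantile normalization the shares were 7.94% decreased and 15.2% increased, against 12.6% and 12.9% of all genes tested and 14.9% and 15% of those at 5 TPM or more. After median-of-ratios scaling they were 10.8% and 11.2%, against 12.9% and 13.3% of all genes tested. After correction for GC content and length, 19.9% of the ZNF genes were decreased and 6.86% increased, against 19.5% and 9.22% of all genes tested and 21.2% and 11.3% of those at 5 TPM or more.

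The 4 vehicle and the 4 LLY-283 values did not overlap for 47 genes that were lower (17%) and 22 genes that were higher (7.94%) with LLY-283, against 19.6% and 9.63% of all genes tested and 20.7% and 11.8% of those at 5 TPM or more. Of the 67 genes that passed the test, 58 had groups without overlap, 40 of them decreased and 18 increased. Under all 21 fits, 19 genes were called decreased (6.86%) and 8 were called increased (2.89%), against 7.69% and 4.33% of all genes tested and 10% and 5.6% of those at 5 TPM or more. Because 1 of these fits filtered at 5 TPM, lower genes could not be called under all fits. Of the 3398 tested genes with a vehicle mean under 5 TPM, 0 were called decreased and 7 increased under all fits. The shares of those at 5 TPM or more are therefore the like comparison.

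**Figure D1:**
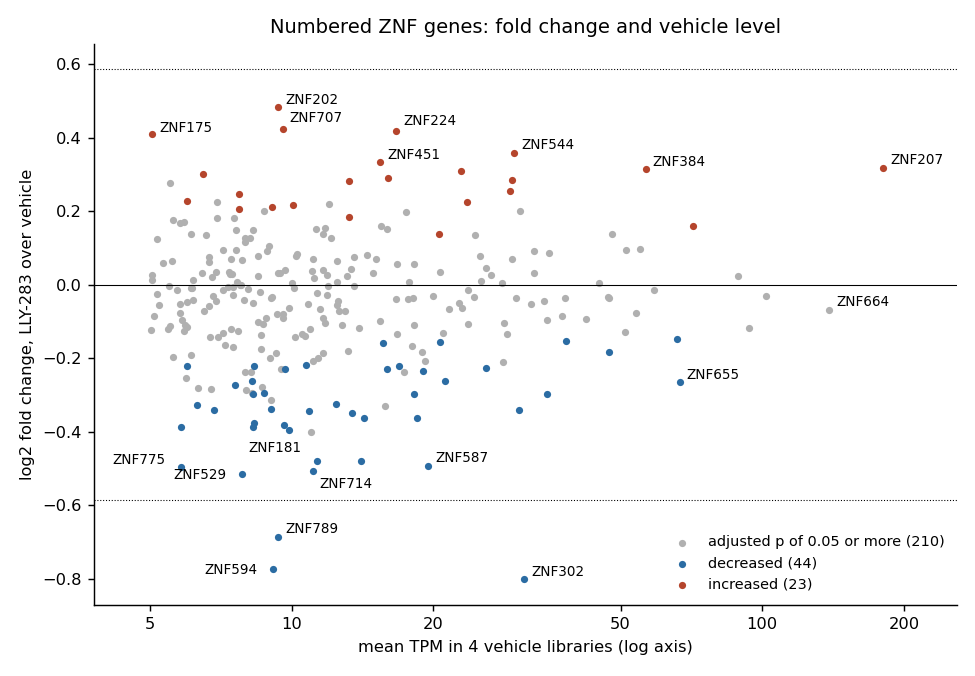
Log2 fold change (LLY-283 over vehicle) of the 277 numbered ZNF genes against their mean vehicle TPM on a log axis, with dotted lines at 1.5-fold. The points fill a band around 0 at every level, 3 decreased genes lie beyond the lower dotted line and none lies beyond the upper one.

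The largest decrease was that of ZNF302 (chromosome 19, 34677639 to 34686397 of GRCh38, plus strand, 5 exons), a KRAB gene. ZNF302 was at 32.04, 29.44, 32.30 and 31.01 TPM in the vehicle libraries and at 19.02, 19.72, 18.16 and 14.90 TPM in the LLY-283 libraries. The groups were far apart, and replicate 4 was the lowest LLY-283 library. On the log2 scale ZNF302 changed by -0.80 with a standard error of 0.082 (limma, adjusted p = 0.000235), and by -0.71 without LLY-283 replicate 4.

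ZNF594 (chromosome 17, minus strand), with 22 finger patterns and no KRAB pattern, was at 8.62, 9.68, 9.80 and 8.47 TPM in vehicle and at 5.86, 5.52, 6 and 4.06 TPM in LLY-283 libraries, and every LLY-283 value was below every vehicle value. The log2 difference was -0.77 with a standard error of 0.122 (limma, adjusted p = 0.0019). ZNF789 (chromosome 7, plus strand), a KRAB gene that overlaps ZNF394 on the opposite strand, was at 9.92, 8.40, 10.2 and 8.91 TPM in vehicle and at 6.03, 5.79, 6.76 and 4.67 TPM in LLY-283 libraries. The groups of ZNF789 were again separate, and the log2 difference was -0.69 with a standard error of 0.113 (limma, adjusted p = 0.00238). Without LLY-283 replicate 4, the log2 fold changes were -0.65 for ZNF594 and -0.587 for ZNF789.

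The next 9 decreases without overlap of the groups lay between -0.51 and -0.38 on the log2 scale, and were those of ZNF529, ZNF714, ZNF587, ZNF181, ZNF514, ZNF101, ZNF248, ZNF610 and ZNF600. All of them but ZNF714 had the KRAB pattern, and all but ZNF514 (chromosome 2) and ZNF248 (chromosome 10) lay on chromosome 19. This did not hold for the decreased genes as a set. Of all 44 decreased genes, 45.5% had the KRAB pattern and 38.6% lay on chromosome 19. Of the 210 genes not called, 59% and 46.7% did. ZNF529 was at 8.49, 8.04, 7.63 and 7.16 TPM in vehicle and at 5.83, 5.40, 5.59 and 4.98 TPM in LLY-283 libraries, with a log2 fold change of -0.51 (adjusted p = 0.00145, limma). It overlaps ZNF382 and ZNF529-AS1 on the opposite strand. ZNF181 was at 11.4, 10.4, 13.6 and 9.98 TPM in vehicle and at 8.11, 8.42, 7.93 and 7.72 TPM in LLY-283 libraries, again without overlap. ZNF181, which starts at 34734155, is the only other gene of the 277 that lies near ZNF302 on chromosome 19. ZNF587 fell from 19.5 ± 0.656 to 14.02 ± 2.42 TPM (SD, n = 4), and its LLY-283 replicate 4, at 10.4 TPM, was far below the other 3, at 14.99 to 15.51 TPM. The call of ZNF714 was lost under 4 of the 20 alternative fits, that of ZNF101 under 8, that of ZNF610 under 4, that of ZNF600 under 6 and that of ZNF248 under 1.

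The largest increase was that of ZNF202 (chromosome 11, minus strand), a SCAN and KRAB protein known as a repressor of genes of lipid metabolism. ZNF202 was at 8.96, 9.87, 9.46 and 9.08 TPM in vehicle and at 14.3, 12.6, 14.4 and 11.2 TPM in LLY-283 libraries. The groups did not overlap, and replicate 4 was the lowest LLY-283 library here too. The log2 difference was 0.48 with a standard error of 0.082 (limma, adjusted p = 0.00289).

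ZNF207, which encodes BuGZ, a protein that binds the checkpoint protein BUB3 and microtubules in mitosis, had the highest level of all 277 genes and the smallest adjusted p of the genes named here. It was at 178.1, 177.6, 188.7 and 178.4 TPM in vehicle and at 225.4, 222.8, 224.3 and 227.3 TPM in LLY-283 libraries, a narrow range in both groups. The log2 difference was 0.32 with a standard error of 0.027 (limma, adjusted p = 9.47e-05).

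Further increases without overlap of the groups were, from the largest, ZNF707, ZNF175, ZNF544, ZNF384, ZNF263, ZNF432, ZNF226, ZNF219, ZNF3 and ZNF273, with log2 fold changes from 0.42 to 0.23. ZNF707 was at 9.04, 10.5, 9.96 and 8.76 TPM in vehicle and at 12.3, 13.3, 13.6 and 12.1 TPM in LLY-283 libraries. ZNF544 rose from 29.7 ± 1.31 to 38.1 ± 2.38 TPM (SD, n = 4; adjusted p = 0.00129, limma). ZNF384, a factor known from gene fusions in acute leukaemia, was at 53.8, 54.2, 57.8 and 60.2 TPM in vehicle and at 71.4, 73.2, 73.0 and 63.5 TPM in LLY-283 libraries, so the groups were separate but replicate 4 came close to vehicle. ZNF263, a SCAN factor, rose from 22.9 ± 1.11 to 28.4 ± 1.37 TPM (SD, n = 4). Several of the named genes overlap a tested gene on the opposite strand, among them ZNF587 (ZNF814), ZNF514 (ZNF2), ZNF544 (ZNF8-DT), ZNF263 (TIGD7), ZNF219 (ARHGEF40) and ZNF3 (ZSCAN21), and shared reads cannot be told apart there if the counting ignored strand. The call of ZNF273 was lost under 12 of the 20 alternative fits, that of ZNF432 under 3 and those of ZNF219 and ZNF3 under 1 each.

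ZNF224, a KRAB gene known as a repressor of the aldolase A gene, was chosen for mention after its values were seen. It was at 16.8, 15.9, 17.2 and 16.7 TPM in vehicle and at 24.6, 25.2, 24.8 and 16.03 TPM in LLY-283 libraries. Replicate 4 lay within the vehicle range and the other 3 libraries lay well above it. The log2 fold change of 0.42 had an adjusted p of 0.0424 (limma), and the call was lost under 12 of the 20 alternative fits.

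**Figure D2:**
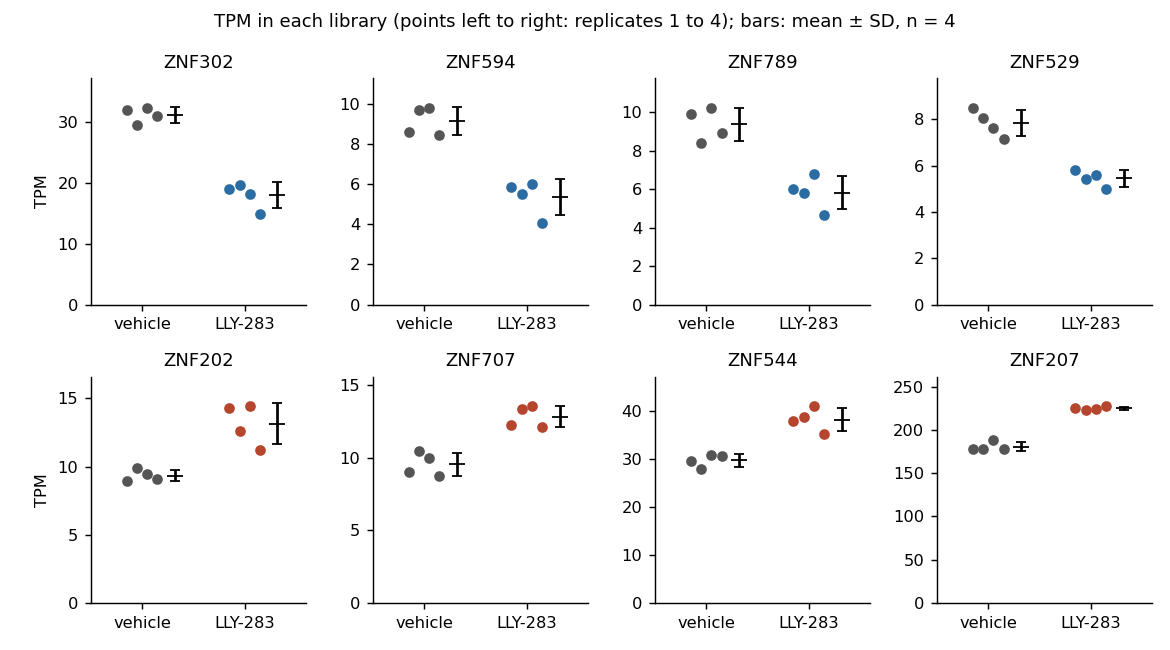
TPM of 4 decreased ZNF genes (upper row) and 4 increased ZNF genes (lower row) in each vehicle and LLY-283 library, with the mean ± SD (n = 4) beside the points and every axis starting at 0. The groups do not overlap in any panel, and for ZNF302, ZNF594, ZNF789 and ZNF529 replicate 4 is the lowest LLY-283 point.

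To show what lies at the start of the genes with the largest changes, the 250 bases upstream of the RefSeq start are given for the 3 genes decreased more than 1.5-fold, for ZNF202 and for ZNF207 (GRCh38, read along the gene's strand). They lie at chr19:34677428-34677677 (plus strand), chr17:5191869-5192118 (minus strand), chr7:99472640-99472889 (plus strand), chr11:123741661-123741910 (minus strand) and chr17:32349907-32350156 (plus strand). Capitals mark matches, on either strand, to GGGCGG (GC box), CCGGAAG (ETS factors), CCAAT (NF-Y), TGCGCA (part of the NRF1 site, identical on both strands) and ACTACAA (part of the ZNF143 site).
ZNF302: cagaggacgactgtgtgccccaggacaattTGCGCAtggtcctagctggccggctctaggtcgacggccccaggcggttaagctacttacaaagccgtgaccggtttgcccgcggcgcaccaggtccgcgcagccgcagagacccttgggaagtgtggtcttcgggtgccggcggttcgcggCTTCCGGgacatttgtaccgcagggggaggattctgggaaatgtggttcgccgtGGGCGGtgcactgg
ZNF594: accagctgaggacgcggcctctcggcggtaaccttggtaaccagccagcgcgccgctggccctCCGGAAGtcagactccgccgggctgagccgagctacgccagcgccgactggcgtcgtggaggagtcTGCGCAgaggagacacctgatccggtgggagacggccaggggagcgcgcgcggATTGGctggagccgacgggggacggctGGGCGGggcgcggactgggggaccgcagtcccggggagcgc
ZNF789: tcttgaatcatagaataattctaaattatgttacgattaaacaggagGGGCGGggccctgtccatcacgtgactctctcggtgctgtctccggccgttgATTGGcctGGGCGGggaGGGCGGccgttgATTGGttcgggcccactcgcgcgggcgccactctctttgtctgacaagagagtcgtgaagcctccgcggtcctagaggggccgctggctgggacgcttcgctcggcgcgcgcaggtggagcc
ZNF202: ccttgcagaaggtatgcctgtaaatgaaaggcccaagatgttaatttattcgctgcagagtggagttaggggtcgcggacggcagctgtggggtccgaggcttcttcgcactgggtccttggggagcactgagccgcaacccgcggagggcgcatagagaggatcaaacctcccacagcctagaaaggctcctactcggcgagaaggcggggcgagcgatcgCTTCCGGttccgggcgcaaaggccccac
ZNF207: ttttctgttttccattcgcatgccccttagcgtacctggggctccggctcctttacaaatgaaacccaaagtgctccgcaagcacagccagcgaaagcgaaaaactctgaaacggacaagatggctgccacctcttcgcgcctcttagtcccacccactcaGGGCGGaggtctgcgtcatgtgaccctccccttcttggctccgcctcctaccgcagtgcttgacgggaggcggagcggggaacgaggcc

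The windows of the decreased genes ZNF302 and ZNF594 each held a GC box, an ETS match and the NRF1 letters, and that of ZNF594 also held a CCAAT match. The window of ZNF789 held 3 GC boxes and 2 CCAAT matches. The window of ZNF202 held 1 ETS match and that of ZNF207 held 1 GC box. RefSeq windows were found for 241 of the 277 genes. A GC box was present in 69.3% of these 241 genes, against 46.2% of the 27305 genes with a window, and the ETS letters were present in 36.9%, against 10.2%. The corresponding shares were 49.8% and 37% for CCAAT, 14.1% and 8.28% for TGCGCA, and 7.47% and 3.06% for ACTACAA. Among the 38 decreased genes with a window, 84.2% held a GC box, and among the 22 increased genes 59.1% did. In the same order the shares were 42.1% and 36.4% for the ETS letters, 52.6% and 31.8% for CCAAT, 26.3% and 9.09% for TGCGCA, and 7.89% and 18.2% for ACTACAA, and no difference was tested. The median number of CpG dinucleotides was 23 in windows of decreased genes, 17 in those of increased genes, 19 for all 241 genes and 11 for all genes with a window. In the same order the median GC content was 67.2%, 60.8%, 62.4% and 58%, and its part in the shares was not tested. The 27305 genes were not restricted to expressed genes, so the shares do not compare ZNF genes with other expressed genes. These shares are descriptions of letters, and no binding was measured.

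KRAB genes and the other ZNF genes were described separately because the domain sets the best known function of the family. Among the 155 genes with the KRAB pattern, 20 were decreased (12.9%) and 11 increased (7.1%), with a median log2 fold change of -0.04. Among the 122 genes without it, 24 were decreased (19.7%) and 12 increased (9.84%), with a median of -0.04. The backgrounds were 17.6% and 8.61% of all genes tested and 19.2% and 10.6% of those at 5 TPM or more, and the difference between the KRAB genes and the others was not tested. After quantile normalization the medians were 0.07 and 0.03. In that fit 9 KRAB genes were decreased and 22 increased, and 13 and 20 of the genes without the pattern. With each library left out in turn, between 14 and 21 KRAB genes were decreased and between 7 and 12 increased. Among the genes without the pattern, between 14 and 21 were decreased and between 5 and 15 increased. The highest numbers of increased genes, 12 and 15, came without LLY-283 replicate 4. Between 13% and 18.4% of all genes tested were decreased in these fits, and 6.13% to 10.4% increased. Of the 15 genes with a SCAN pattern, 3 were decreased and 2, ZNF202 and ZNF263, were increased. The number of finger patterns was unrelated to the fold change (Spearman's rho 0.04 across 277 genes, a description since genes are not independent).

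The summed TPM of the 155 KRAB genes was 1790, 1752, 1833 and 1778 in the vehicle libraries and 1793, 1760, 1792 and 1590 in the LLY-283 libraries. LLY-283 replicates 1 to 3 lay within the vehicle range and replicate 4 lay below it. The summed TPM of the 122 other genes was 2862 to 2965 in vehicle and 2859 to 2936 in LLY-283 libraries, with replicate 4 the lowest by a small margin. Replicate 4 was the lowest of the LLY-283 libraries for 99 of the 155 KRAB genes and for 50 of the 122 others. Relative to the vehicle mean, the median log2 difference of the KRAB genes was -0.15 in replicate 4 and between -0.04 and -0.01 in the other LLY-283 libraries, whereas over all genes tested it was -0.06 in replicate 4 and between -0.04 and -0.03 in the others. Without replicate 4, 15 KRAB genes were decreased and 12 increased, with a median of 0.00. Of all 277 genes 36 were decreased (13%) and 27 increased (9.75%), against 18.4% and 10.4% of all genes tested in that fit. With the mitochondrial genes left out of all libraries and TPM rescaled, 20 KRAB genes were decreased and 8 increased, with a median of -0.05. In that fit 15.9% of the 277 genes were decreased and 5.78% increased, against 18.3% and 8.06% of all genes tested. The part of the low mitochondrial share in the values of replicate 4 itself was not tested.

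**Figure D3:**
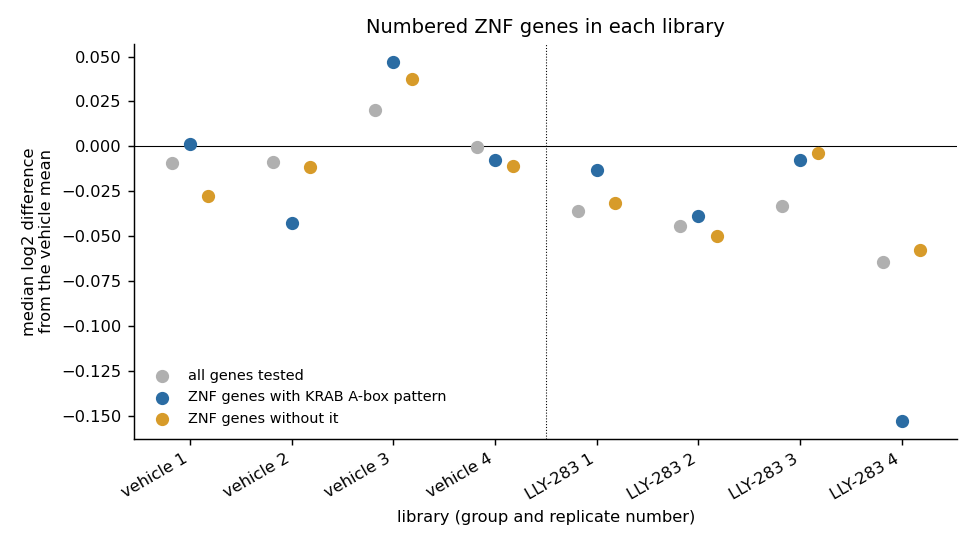
Median log2 difference from the vehicle mean in each library for all genes tested, for the 155 ZNF genes with a KRAB A-box pattern and for the 122 without it. LLY-283 replicate 4 is the lowest library for all 3 sets, and its KRAB point, at -0.15, is the lowest of the plot.

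The fold change was higher in genes with more exons of the canonical transcript (Spearman's rho 0.21 across the 277 genes and 0.13 across 14443 genes with an annotated transcript). Of the 52 genes with 1 to 3 exons, 14 were decreased (26.9%) and 2 increased (3.85%), with a median log2 fold change of -0.10. Of the 115 genes with 4 or 5 exons, 19 were decreased (16.5%) and 6 increased (5.22%), with a median of -0.05. Of the 73 genes with 6 to 8 exons, 8 were decreased (11%) and 10 increased (13.7%), with a median of -0.02. Of the 37 genes with 9 or more exons, 3 were decreased (8.11%) and 5 increased (13.5%), with a median of 0.03. The decreased ones were ZNF143, ZNF318 and ZNF558, and ZNF207, ZNF384, ZNF451 and ZNF202 were among the increased ones. Among genes of any family with 5 TPM or more in vehicle, 22.8% of the 1617 genes with 1 to 3 exons were decreased and 4.89% increased, 22.4% and 8.04% of those with 4 or 5 exons, 20.9% and 10.6% of those with 6 to 8 exons, and 16.7% of the 5735 genes with 9 or more exons were decreased and 12.9% increased. The medians ran from -0.09 to -0.01 from the first to the last of these classes, so the medians of the ZNF genes were ordered as those of genes in general, and a difference from it was not tested. The median of the genes with few exons stayed the lowest of the 4 classes under quantile normalization (-0.0041), median-of-ratios scaling (-0.05), correction for GC content and transcript length (-0.10) and without LLY-283 replicate 4 (-0.10). The balance of calls was less stable. The class of 1 to 3 exons had 6 decreased and 6 increased genes after quantile normalization and 9 and 4 after median-of-ratios scaling. All genes tested had 12.6% and 12.9%, and 12.9% and 13.3%, in these fits. With 1 library left out, this class had between 8 and 13 decreased and between 0 and 2 increased genes. The class of 4 or 5 exons then had between 9 and 16 decreased and between 2 and 10 increased genes. Of all genes tested, 13% to 18.4% were then decreased and 6.13% to 10.4% increased. The fold change was also related to the level, with a Spearman's rho of 0.13 between the mean TPM and the fold change across the 277 genes, and the part of level in the relation to exons was not tested.

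On chromosome 19, 17 of the 126 genes were decreased (13.5%) and 11 increased (8.73%), against 17.6% and 8.61% of all genes tested, and on the other chromosomes 27 of 151 were decreased (17.9%) and 12 increased (7.95%). The balance on chromosome 19 turned to 8 decreased and 19 increased after quantile normalization and to 11 and 12 after median-of-ratios scaling. All genes tested had 12.6% and 12.9%, and 12.9% and 13.3%, in these fits. With 1 library other than LLY-283 replicate 4 left out, between 4 and 6 genes of chromosome 19 were increased, and 11 without replicate 4. Between 9 and 16 were decreased in the fits without 1 library. Of all genes tested, 13% to 18.4% were then decreased and 6.13% to 10.4% increased. Genes less than 1000 kb apart were joined into clusters, of which 7 on this chromosome held at least 5 genes. The cluster from 19.7 to 21.9 Mb had the lowest median log2 fold change of the 7, at -0.23. In it ZNF101, ZNF85 and ZNF714 were decreased (30% of its genes, against 17.6% of all genes tested), none of its 10 genes was increased (0 at an unadjusted p under 0.05 by limma), and 9 of 10 fold changes were below 0. ZNF431 and ZNF100 in this cluster had log2 fold changes of -0.40 and -0.29 that missed the threshold (adjusted p = 0.0577 and 0.0721, limma). The calls of ZNF85, ZNF101 and ZNF714 were lost under 10, 8 and 4 of the 20 alternative fits. The median stayed below 0 after quantile normalization (-0.14), with 6 of 10 genes below 0 and 1 called, and without LLY-283 replicate 4 (-0.16), where 1 gene was called.

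The cluster from 43.6 to 44.5 Mb had 4 increased genes, ZNF428, ZNF224, ZNF226 and ZNF227 (30.8%, against 8.61% of all genes tested), and none of its 13 genes was decreased by limma, although 2 were lower at an unadjusted p under 0.05. ZNF226 was at 31.1, 29.99, 30.04 and 26.3 TPM in vehicle and at 35.9, 35.1, 37.2 and 34.8 TPM in LLY-283 libraries. ZNF222 and ZNF234 of the same cluster had log2 fold changes of -0.24 each, which did not pass the test. Without LLY-283 replicate 4, 2 genes of the cluster were called increased, and the calls of ZNF428, ZNF224 and ZNF227 were lost under 9, 12 and 12 of the 20 alternative fits. The 2 largest clusters held calls in both directions, 6 decreased (18.8%) and 2 increased (6.25%) of 32 genes between 51.6 and 53.6 Mb and 3 decreased (8.57%) and 2 increased (5.71%) of 35 genes between 55.5 and 58.5 Mb, near or below the shares of 17.6% and 8.61% over all genes tested. After quantile normalization each of these 2 clusters had 1 decreased and 5 increased genes, against 12.6% and 12.9% of all genes tested. Genes within a cluster are similar in sequence, and the counting divides reads that fit several copies among them, so the values of near-identical neighbours are uncertain.

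**Figure D4:**
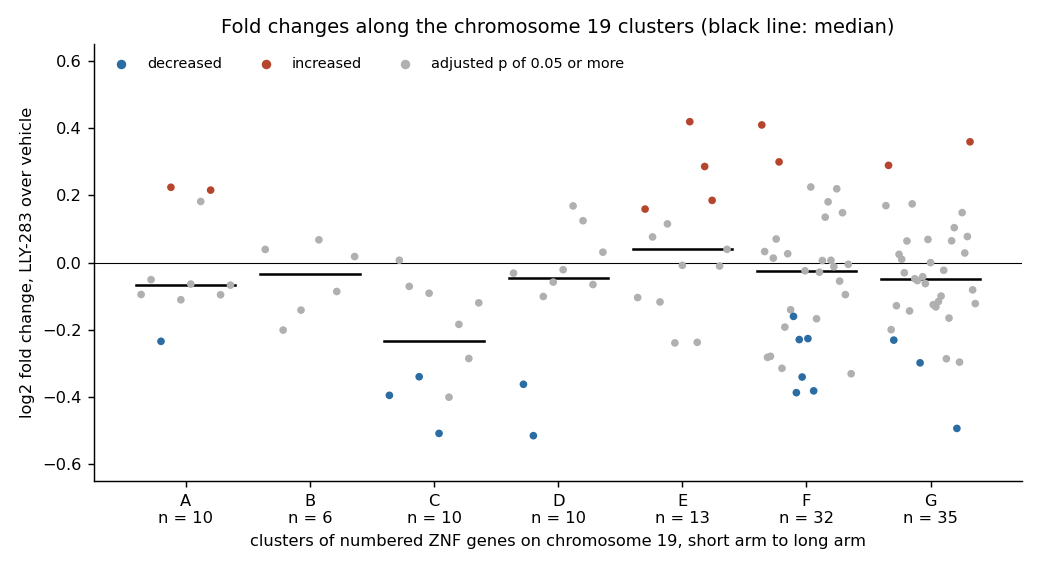
Log2 fold changes of the ZNF genes in 7 clusters of chromosome 19 (A to G, each point a gene in order of position, black lines for the medians). Cluster C, from 19.7 to 21.9 Mb, has the lowest median, at -0.23, and cluster E, from 43.6 to 44.5 Mb, has 4 increased and no decreased gene.

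Some numbered ZNF genes have roles outside DNA binding, and 13 of them with known links to RNA, ribosomes, SUMO or mitosis were listed. Of these, ZNF207 and ZNF451 were increased and ZNF706 was decreased, with a median log2 fold change of 0.08 over the list. These are 15.4% and 7.69% of the list, against 8.61% increased and 17.6% decreased of all genes tested, and rest on 3 genes. ZNF451, a SUMO ligase, was at 14.2, 13.8, 17.1 and 16.5 TPM in vehicle and at 20.6, 20.2, 20.8 and 16.2 TPM in LLY-283 libraries, with replicate 4 inside the vehicle range (log2 fold change 0.33, adjusted p = 0.0334, limma, lost under 10 of the 20 alternative fits). ZNF706, which encodes a small protein with a single finger, was at 64.5, 63.9, 70.3 and 64.7 TPM in vehicle and at 59.8, 60.7, 60.9 and 56.1 TPM in LLY-283 libraries, lower in every library (log2 fold change -0.15, adjusted p = 0.0281, limma, lost under 6 of the 20 alternative fits). ZNF598, the ubiquitin ligase that marks collided ribosomes, was at 51.3 ± 2.49 and 54.9 ± 4.75 TPM, a difference within the spread. ZNF638, an RNA-binding protein that silences unintegrated retroviral DNA, was at 93.9 ± 2.68 and 86.6 ± 4.25 TPM (adjusted p = 0.0561, limma). The remaining 8 genes, ZNF622 and ZNF593 of the large ribosomal subunit pathway, ZNF326, ZNF346, ZNF830, ZNF330, ZNF277 and ZNF106, had log2 fold changes between -0.21 and 0.13 and did not pass the test. In an alternative fit, ZNF830, ZNF326, ZNF277, ZNF106 and ZNF346 did pass (lowest adjusted p between 0.0261 and 0.0422, limma). The groups of ZNF830 did not overlap.

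A second list held 31 factors with a known DNA site or chromatin partner, of which 30 were tested and ZNF521, at 0 in vehicle, was not. ZNF143, ZNF318 and ZNF703 were decreased and ZNF219 and ZNF687 were increased, with a median log2 fold change of -0.03 over the list. These are 10% decreased and 6.67% increased, against 17.6% and 8.61% of all genes tested. ZNF143, an activator at many promoters and at small nuclear RNA genes, was at 20.6, 21.0, 20.3 and 23.0 TPM in vehicle and at 17.95, 17.6, 16.7 and 18.5 TPM in LLY-283 libraries. The groups did not overlap and ZNF143 fell by 0.26 on the log2 scale, with a standard error of 0.053 (limma, adjusted p = 0.00671). ZNF318 fell from 8.75 ± 0.359 to 7.12 ± 0.456 TPM, and ZNF703, a co-repressor amplified in breast cancer, fell from 47.2 ± 1.73 to 41.6 ± 0.836 TPM (SD, n = 4).

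ZNF219, a partner of SOX9 in cartilage, rose from 13.2 ± 0.68 to 16.1 ± 0.64 TPM. ZNF687 rose from 20.6 ± 0.402 to 22.7 ± 0.522 TPM (log2 fold change 0.14), a call that was lost under 5 of the 20 alternative fits. Its complex partners ZNF592 and ZNF532 had log2 fold changes of 0.07 and 0.14 that did not pass the test, ZNF532 with the same fold change as ZNF687 and an adjusted p of 0.031 (limma) without LLY-283 replicate 4. ZNF91, which binds SVA elements, stayed within the spread, at 5.52 ± 0.696 and 5.07 ± 0.234 TPM. So did ZNF93, which binds LINE elements, at 6.52 ± 0.554 and 6.20 ± 0.381 TPM. ZNF10, the source of the KRAB domain used in gene silencing tools, was at 7.43 ± 0.432 and 6.82 ± 0.336 TPM (adjusted p = 0.206, limma). ZNF274, which brings SETDB1 to ZNF genes themselves, was at 10.2 ± 0.969 and 10.8 ± 0.724 TPM. For ZNF410, the activator of CHD4, the log2 fold change was 0.09 (adjusted p = 0.166, limma). The 25 tested genes of the list that were not called had log2 fold changes between -0.28 (ZNF350) and 0.20 (ZNF24). Without LLY-283 replicate 4 the log2 fold change of ZNF24 was 0.25 and passed the test (adjusted p = 0.0156, limma). ZNF268, ZNF350, ZNF423, ZNF462, ZNF592 and ZNF652 also passed in an alternative fit (lowest adjusted p between 0.0208 and 0.0396, limma).

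Of the co-repressor machinery that KRAB proteins use, 30 genes were tested, 2 were increased and 1 was decreased, against 8.61% and 17.6% of all genes tested, with a median log2 fold change of 0.01. TRIM28 was at 599.4, 629.0, 635.9 and 635.6 TPM in vehicle and at 637.2, 649.5, 651.3 and 696.0 TPM in LLY-283 libraries, which did not overlap (log2 fold change 0.08, adjusted p = 0.135, limma). It passed the test in at least 1 alternative fit (lowest adjusted p = 0.0415, limma). SETDB1 was at 24.5, 24.4, 24.6 and 24.3 TPM in vehicle and at 31.5, 29.5, 30.1 and 25.3 TPM in LLY-283 libraries, all above vehicle with replicate 4 closest to it (log2 fold change 0.24, adjusted p = 0.0186, limma). CBX5, the heterochromatin protein HP1 alpha, was increased with a log2 fold change of 0.19. The histone methyltransferase gene SUV39H2 fell from 10.9 ± 1.08 to 8.51 ± 0.636 TPM (SD, n = 4; adjusted p = 0.0145, limma). Each of the 3 calls was lost in at least 1 alternative fit, where the adjusted p reached 0.0554 for SETDB1, 0.0794 for CBX5 and 0.064 for SUV39H2.

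ZNF genes often share their start region with a gene on the opposite strand. Within 1000 bp of the start of a ZNF gene, 25 divergent neighbours were tested, 17 of them protein coding and 7 long noncoding RNA (lncRNA) genes. None of the protein coding neighbours was called by limma, against 17.6% decreased and 8.61% increased of all genes tested, although 5 had an unadjusted p under 0.05. Of the 7 lncRNA neighbours, 4 were decreased (ZNF528-AS1, ZNF691-DT, ZNF561-AS1 and ZNF496-DT) and none was increased, with a median log2 fold change of -0.42. Most were low, with vehicle means from 1.31 TPM (LINC01560) to 10.35 TPM (ZNF528-AS1). ZNF691-DT averaged 1.64 TPM, ZNF496-DT 4.17 TPM and ZNF561-AS1 5.84 TPM in vehicle. Over all 1366 lncRNA genes tested, 28% were decreased and the median was -0.28.

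ZNF528-AS1 was at 10.3, 9.84, 10.7 and 10.6 TPM in vehicle and at 5.99, 6.55, 5.74 and 4.35 TPM in LLY-283 libraries, and its partner ZNF528, a KRAB gene, fell from 30.4 to 24.1 TPM on average. The log2 fold changes were -0.88 for ZNF528-AS1 and -0.34 for ZNF528. ZNF691 and ZNF691-DT were both decreased, with log2 fold changes of -0.34 and -0.86. ZNF561-AS1 was decreased with a log2 fold change of -0.61 while its partner ZNF561 had one of -0.10 (adjusted p = 0.483, limma), and ZNF496-DT was decreased (-0.27) beside ZNF496 at 0.03. For ZNF594 the order was the other way, with -0.77 for the ZNF gene and -0.42 for ZNF594-DT (adjusted p = 0.0962, limma). No difference within a pair was tested. Between 2 and 4 of the 7 lncRNA genes were called under the fits that kept all 7. The filter at 5 TPM kept only 1 of them, which was called decreased. After quantile normalization 2 were called, and their median was -0.24 with 6 of 7 below 0, against a median of -0.11 for all lncRNA genes. The strand setting of the counting is not given in the sources used here, and reads from overlapping parts of such pairs may be shared.

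**Figure D5:**
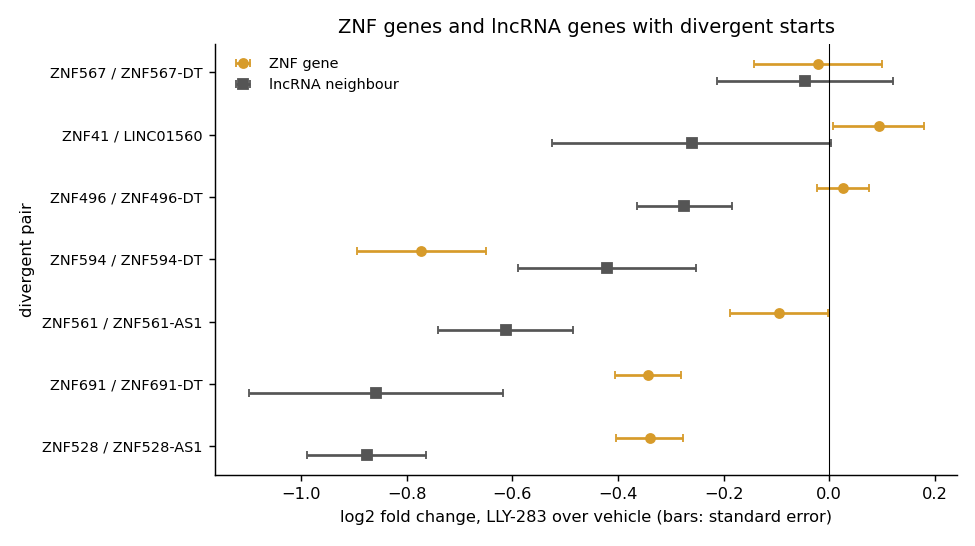
Log2 fold changes (LLY-283 over vehicle, bars for the standard error) of 7 ZNF genes and of the lncRNA genes that start within 1000 bp on the opposite strand. All 7 lncRNA points lie below 0, from -0.88 (ZNF528-AS1) to -0.05 (ZNF567-DT), and 5 of the 7 ZNF points do.

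Of the 5 genes of the highest vehicle level, ZNF207 passed the test and the other 4 (ZNF664, ZNF146, ZNF638 and ZNF511) did not, although ZNF664 and ZNF638 passed in some alternative fits (lowest adjusted p = 0.00986 and 0.0222, limma). ZNF664 was at 138.6 ± 4.38 and 132.1 ± 2.04 TPM, ZNF146, a protein made almost entirely of fingers, at 101.7 ± 4 and 99.6 ± 5.11 TPM, and ZNF511 at 88.7 ± 0.617 and 90.2 ± 5.36 TPM (SD, n = 4), in each case vehicle before LLY-283. Summed over the 277 genes, the level was 4690 ± 75.1 TPM in vehicle and 4629 ± 125 TPM in LLY-283 libraries (SD, n = 4), and without LLY-283 replicate 4 the latter was 4689 ± 40.6 TPM (SD, n = 3). The genes nearest to the threshold of 5 TPM were ZNF620 (5.02 TPM in vehicle) and ZNF836 (5.04 TPM) inside it and ZNF862 (4.998 TPM) and ZNF440 (4.96 TPM) outside it. Because the vehicle mean enters both the choice and the fold change, the choice was repeated with the other means. Chosen at 5 TPM or more by the LLY-283 mean, 41 of 274 genes were decreased and 23 increased, and by the mean of all 8 libraries 43 of 276 were decreased and 23 increased. Each of these choices again gave 3 genes decreased more than 1.5-fold.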

How the data were processed

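RNAseq was performed by poly(A) capture on 4 vehicle and 4 LLY-283 samples, which the labels call biological replicates without saying whether the cultures were separate, so p-values measure the spread between these samples. The authors trimmed reads, mapped them to GRCh38 and estimated expression, for which the submitters' processing notes name Cutadapt 1.18, STAR 2.7.0f and RSEM 1.3.1 and the study's methods name other versions of STAR and RSEM, and they deposited TPM values with 2 decimals. The strand setting is not given in the sources used here. TPM removes depth and transcript length but not differences in composition, and RSEM divides reads among near-identical paralogs. The depth of the libraries is therefore unknown, and no counting error can be given.

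From the TPM values, log2(TPM + 0.1) was compared for genes averaging 1 TPM or more with limma 3.58.1 (lmFit, eBayes with trend) in R 4.3.3, with no block and with Benjamini-Hochberg adjustment over 14478 genes. Fold changes on this scale understate the change of low genes. Tests that need counts were not used. Gene positions, exons and translated proteins came from GENCODE release 44, which matched all 277 genes, and upstream windows from RefSeq. The named genes were the 12 largest decreases and 12 largest increases among calls without overlap, the 5 highest levels, the genes nearest to 5 TPM and the listed genes, and others are said to be chosen later. The genes and lists were chosen with earlier results of these data known. Alternatives were pseudocounts of 0.5 and 1, other filters, scalings, thresholds and eBayes settings, and correction for GC content and length. Others were removal of the mitochondrial genes, a replicate block and each library left out in turn. Same-numbered libraries did not deviate together (correlations of deviations from -0.09 to 0.03). The fit was also tried on simulated data, and the outcome is not given here. 1 gene of the co-repressor list is not reported here.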

Additional observations from a re-analysis of the deposited data

Results flagged for a closer look

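Within a group of 4 libraries, a library was flagged when its gap to the nearest other library exceeded Dixon's 95% critical value as a share of the group's range. Of 164 groups checked, 16 were flagged, and chance flags about 1 in 20. LLY-283 replicate 4 was the flagged library for the summed TPM of the KRAB genes (1590 TPM), and for ZNF24 (17.8 TPM), ZNF451 (16.2 TPM), ZNF514 (8.15 TPM), ZNF587 (10.4 TPM) and ZNF608 (11.4 TPM), where it was the lowest, and for ZNF593 (66.4 TPM), where it was the highest. Vehicle replicate 3 was the highest for ZNF207 (188.7 TPM), ZNF608 (13.6 TPM), ZNF609 (37.5 TPM) and ZNF706 (70.3 TPM). Vehicle replicate 1 was the lowest for ZNF462 (12.9 TPM) and ZNF652 (8.04 TPM) and the highest for ZNF862 (6.43 TPM). LLY-283 replicate 2 was the highest for ZNF268 (16.2 TPM) and the lowest for ZNF746 (13.7 TPM).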

How the results depend on the processing

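The number of decreased genes (44) was 29 with no filter on low values and 22 after quantile normalization. The number of increased genes (23) was 14 and 42 in these fits. It was 10 when the trend on GC content and length was removed with a replicate block (3.61%, against 6.54% of all genes tested). With no filter, 10.5% of the ZNF genes were decreased and 5.05% increased, above the 6.49% and 2.96% of all 31471 genes tested. Both shares lay below the 14.7% and 7.73% of the genes at 5 TPM or more in that fit. The median log2 fold change (-0.04) was 0.0067 after median-of-ratios scaling and 0.0483 after quantile normalization, against -0.0022 and 0.0145 over all genes tested. With each library left out in turn, between 28 (without vehicle replicate 3) and 40 genes were decreased, between 13 and 15 were increased without any 1 library other than LLY-283 replicate 4 and 27 without that library, and the median lay between -0.05 and -0.02. Of all genes tested, 13% to 18.4% were decreased and 6.13% to 10.4% increased in these fits. With the genes chosen at 10 TPM, 25 were decreased, 15 increased and 1 decreased over 1.5-fold, and at 2 TPM 6 were decreased over 1.5-fold. At a log2 threshold of 0.32, 23 were decreased and 6 increased, and at a threshold of 2-fold 0 were decreased, at an adjusted or an unadjusted p under 0.05 (limma). With the replicate block alone 33 genes were decreased (11.9%) and 18 increased (6.5%). The backgrounds in that fit were 15.2% and 7.56% of all genes tested and 17.1% and 9.39% of those at 5 TPM or more. The replicate numbers are not said to mark a shared batch. No library correlated best with its own number, but with 4 libraries per group this cannot exclude pairing. Of the 76 named genes, 17 had fold changes of both signs over the fits, among them ZNF146, ZNF511, ZNF91, ZNF93, ZNF620 and ZNF836, and none of the 17 was called in any fit (lowest adjusted p = 0.104, limma).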

Other observations

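Among the 131 numbered ZNF genes that passed the filter on low values with a vehicle mean under 5 TPM, 9 were decreased and 2 increased (6.87% and 1.53%, limma), and 3 genes, named after their values were seen, fell more than 1.5-fold (2.29%). Of all 3398 genes tested with a vehicle mean under 5 TPM, 12.1% were decreased, 2.12% increased and 7.65% decreased more than 1.5-fold. ZNF852 was at 2.33, 2.39, 2.07 and 2.79 TPM in vehicle and at 1.43, 1.02, 1.11 and 1.31 TPM in LLY-283 libraries. ZNF311 fell from 2.62 ± 0.132 to 1.46 ± 0.136 TPM and ZNF117 from 4.29 ± 0.336 to 2.75 ± 0.576 TPM (SD, n = 4). At these levels the pseudocount and the unknown depth weigh more than for the genes above 5 TPM.

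Related zinc finger families, also named after their values were seen, gave calls in both directions, to be read against 17.6% decreased and 8.61% increased of all genes tested. Of 34 numbered ZBTB genes tested, 5 were decreased (14.7%) and 2 increased (5.88%), and ZBTB26 fell from 5.3 ± 0.427 to 3.19 ± 0.61 TPM with a log2 fold change of -0.73 (adjusted p = 0.00568, limma). ZBTB17, which encodes the MYC partner MIZ1, rose from 32.5 ± 1.55 to 35.9 ± 0.485 TPM. Of 13 numbered ZFP genes 2 were decreased and 2 increased (15.4% each), among them ZFP36, an RNA-binding protein of the CCCH type that is no C2H2 factor, which fell from 5.68 ± 0.47 to 4.15 ± 0.576 TPM. Of 13 numbered ZSCAN genes 2 were decreased (15.4%) and none increased, and of 6 ZKSCAN genes none was called by limma. No difference between these families and the ZNF genes was tested.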
